A study of Mus musculus with 3 samples.

Results

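Proteins that a cell secretes or places in its membranes first enter the endoplasmic reticulum (ER). The genes described here encode the machinery of that entry and of the traffic that follows: the translocon and its signal peptide enzymes, the COPII and COPI vesicle coats, and the receptors that sort cargo between the ER and the Golgi. They were chosen by name from the roles of their products, with earlier results of these data known, as a list of 54 genes. A probe set of their own, annotated to no other gene, represented 53 of them, out of 18193 genes so represented. Dim signals were raised to a floor of 54.01, and 51 members exceeded it on at least 1 array and are called measured here.

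The cells were mouse embryonic stem (ES) cells, pluripotent cells of the early embryo, engineered so that overexpression of the transcription factor Gata6 responds to dex, read here as dexamethasone. Gata6 specifies primitive endoderm, an extraembryonic tissue. The 3 arrays, labelled day 0 (the control), day 1 and day 2 of overexpression, had no replicates, so no test between days could be run. Gata6, any dex given and time differ together between the arrays, so their effects cannot be told apart. The ES cell line, the dose of dex, the promoter behind the overexpression and whether the day 0 cells carried the modification are not stated in the labels.

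The labels were checked against marker genes. Gata6 itself read 110, 5574 and 6070 on day 0, day 1 and day 2 (scaled MAS5 signal, as are all signals below). All 6 primitive endoderm markers were at least 2-fold higher on day 2 than on day 0 (median log2 ratio at least 6.50, since Gata4, Sox17 and Pdgfra were under the floor on day 0), as were 5 of 5 parietal endoderm and 4 of 5 measured visceral endoderm markers. Of 7 ES cell markers, 6 were at least 2-fold lower, and the exception was Dppa5a (log2 ratio -0.15). Of 6 fibroblast markers, 3 (Col1a1, Col3a1 and Postn) never exceeded the floor. Col1a2 was dim but above it on all 3 arrays, at 84.8, 67.5 and 82.6 (day 2 log2 ratio -0.04). Twist1 was at least 2.08-fold higher and Thy1 at least 7.80-fold lower on day 2 than on day 0. Of 3 trophoblast markers, 2 were measured and 1, Cdx2, was at least 2.23-fold higher. These endoderm markers moved on the same arrays as the secretory genes below, and their part in those differences was not tested. In bulk RNA, fewer cells of a type and less RNA per cell cannot be told apart.

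As background, a ribosome making a secreted protein is brought to the ER by the signal recognition particle and its receptor, and the growing chain passes through the Sec61 channel, where a peptidase removes its signal peptide. COPII coats bud vesicles that leave the ER, and COPI coats carry escaped ER proteins and recycling receptors back from the Golgi. Parietal and visceral endoderm, the derivatives of primitive endoderm, are secretory epithelia that produce basement membrane and plasma proteins.

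Nearly all measured members were brighter on day 2 than on day 0, some of them only slightly. Of 51 measured members, 49 had a log2 ratio above 0, against a background of 46.7% of all 13865 genes compared. The median was 0.82 over the members and -0.05 over all genes compared. At least 2-fold higher were 20 members and at least 2-fold lower 0, where 11.0% of all genes were higher and 10.1% lower. A further 17 members were between 1.5-fold and 2-fold higher, so 37 passed 1.5-fold, where 20.2% of all genes did, and 1 member was as much lower (21.9% of all genes). At least 3-fold higher were 6 members (5.19% of all genes). The 4 highest ratios belonged to the COPII adaptor Sec24d (6.56-fold), the cargo receptor Surf4 (5.52-fold), the retrieval receptor Kdelr3 (4.22-fold) and the p24 protein Tmed3 (4.13-fold). Only Ergic1 and Copg2 had ratios below 0. The floor did not select these members, since 50 of the 51 were above it on all 3 arrays.

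**Figure D1:**
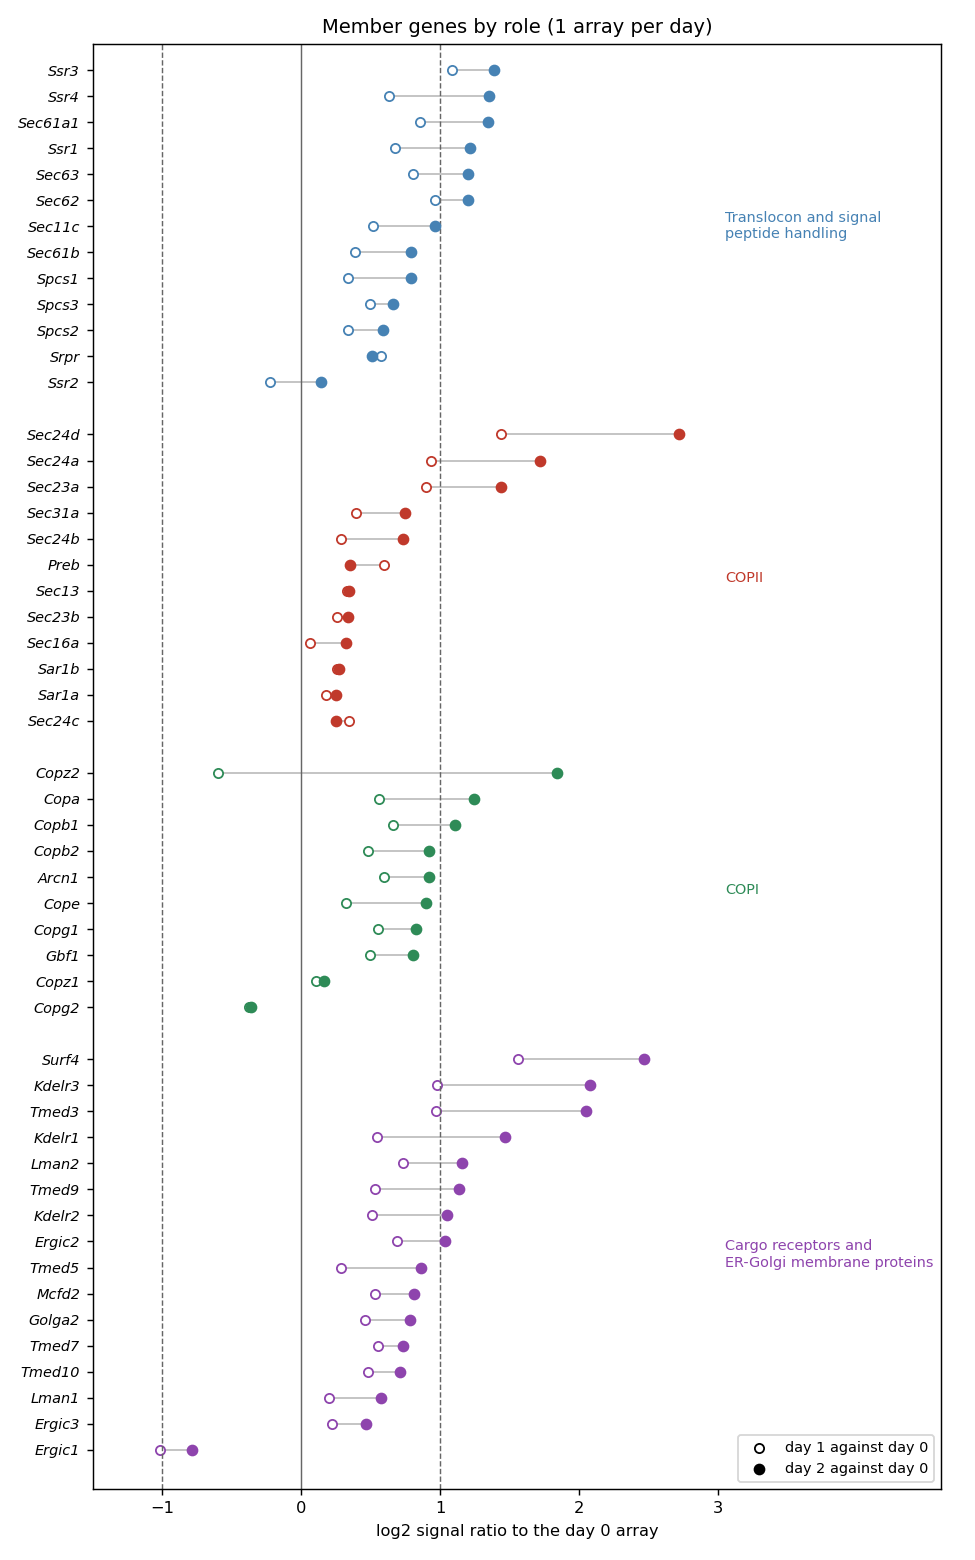
Log2 signal ratios to the day 0 array for the 51 measured members, grouped by role, with 1 array per day. Open circles are day 1, filled circles day 2, and dashed lines mark 2-fold. Filled circles lie right of 0 for 49 members, and 20 of them lie past the right dashed line.

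Most members are well expressed, so they were also set beside genes of like brightness. Among the 4104 genes whose mean signal was over 1000, 9.02% were at least 2-fold higher on day 2 and 41.9% had a log2 ratio above 0. Of the 42 members in that class, 17 were higher and all 42 had a ratio above 0, with a median of 0.86, where the 4104 genes had a median of -0.12. The mean was taken over all 3 arrays, day 2 included, so the class depends on the values compared. Sec24d, Sec11c, Surf4 and Sec24a, at 545, 754, 897 and 930 on day 0, entered it through later days.

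**Figure D2:**
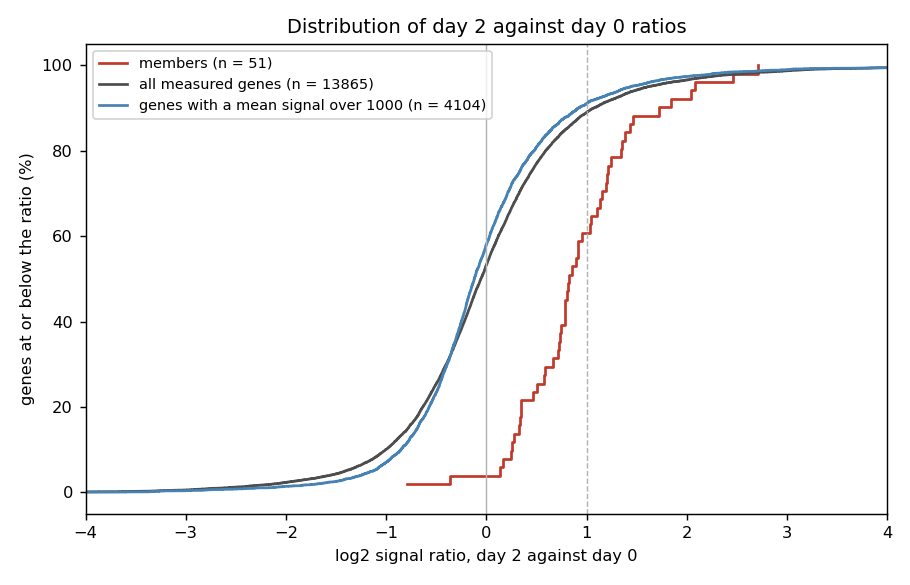
Cumulative share of genes (%) by log2 signal ratio of day 2 against day 0, for the members, for all measured genes and for genes with a mean signal over 1000. The solid line marks 0 and the dashed line 2-fold. The member curve lies to the right of both others over most of its length, with medians of 0.82 for the members, -0.05 for all genes and -0.12 for the brighter genes.

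The members moved in small steps over both days. On day 1 against day 0, 47 of 51 had a ratio above 0 (46.0% of all genes), with a median of 0.51, but only 3 were at least 2-fold higher (6.00% of all genes) and 1 lower (6.58%). On day 2 against day 1, 48 of 51 had a ratio above 0 (49.4% of all genes) and the median was 0.37, with 4 higher (5.61% of all genes) and 0 lower (3.67%). At 1.5-fold, 17 members were higher (13.3% of all genes) and 2 lower (15.9%) on day 1 against day 0, and 10 were higher on day 2 against day 1 (15.0%). At 3-fold, 0 members were higher (2.54%) and 0 lower (2.12%) on day 1 against day 0, and 1 was higher on day 2 against day 1 (1.69%). In all, 44 of 51 were higher at each step, against 21.2% of all genes above the floor and 24.2% of genes with a mean signal over 1000. The log2 ratio of the first step, sign included, was above that of the second for 32 of the 51. The comparisons share arrays in pairs, so their counts are not independent.

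No replicate gives the error of a ratio. The only measure at hand is the disagreement between probe sets of one gene, expressed as an SD of the log2 ratio. It shrank with brightness: 0.49 below a signal of 200, 0.38 between 200 and 1000, 0.25 between 1000 and 5000, and 0.16 in brighter probe sets. It covers measurement within these arrays and not the spread between cultures.

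The proximal promoters of several members share a sequence element. RefSeq promoter windows of build GRCm38.p6 (250 bases before to 50 after a gene's start) were available for 45 of the 54 members. The 8 letters TGACGTGG, the core of the UPR element recognised by the unfolded protein response factors Xbp1 and Atf6, stood on either strand in 7 of the 45. The share was 0.714% of all 27025 genes in the promoter table and 1.02% of the 11179 genes compared here that have a window. Of the 18 members at least 2-fold higher on day 2 that have a window, 4 carried it. Positions are counted from the start, with -1 the last base before it and 1 the first base after. The windows below are shown because the element stands in all of them within 50 bases of the start. They are written along the gene's strand, with the element or its reverse complement in capitals.
Sec24d: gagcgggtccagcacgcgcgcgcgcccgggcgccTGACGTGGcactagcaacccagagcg
Kdelr3: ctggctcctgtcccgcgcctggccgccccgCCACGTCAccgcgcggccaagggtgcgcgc
Copb1: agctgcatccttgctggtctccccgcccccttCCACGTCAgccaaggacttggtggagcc
Gbf1: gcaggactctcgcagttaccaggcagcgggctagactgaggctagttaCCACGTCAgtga
Sec16b: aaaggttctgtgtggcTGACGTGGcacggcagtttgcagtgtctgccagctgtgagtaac
Sec23a: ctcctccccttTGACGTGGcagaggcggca
Copb2: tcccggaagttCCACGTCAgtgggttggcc

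The first 5 windows are the 60 bases before the start, at chr3:123267436-123267495 (+) for Sec24d, chr15:79516348-79516407 (+) for Kdelr3, chr7:114254681-114254740 (-) for Copb1, chr19:46152498-46152557 (+) for Gbf1 and chr1:157506736-157506795 (+) for Sec16b. The Sec23a and Copb2 windows are 30 bases around the element, at chr12:59011993-59012022 (-) and chr9:98563713-98563742 (+). The start is that of a listed transcript, and in Sec24d, Gbf1 and Sec16b it is not the outermost start of the gene in RefSeq. The element began at -26 in Sec24d, -30 in Kdelr3, -28 in Copb1, -12 in Gbf1 and -44 in Sec16b. It lay just inside the transcribed part in Sec23a, from position 7, and across the start in Copb2, from -7. In day 2 against day 0, these genes had log2 ratios of 2.71 (Sec24d), 2.08 (Kdelr3), 1.43 (Sec23a), 1.11 (Copb1), 0.92 (Copb2) and 0.80 (Gbf1), while Sec16b was at the floor throughout. A match of letters is not shown to be a binding site.

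The shorter box ACGTGG, which lies inside TGACGTGG, stood in 23 of the 45 windows and in 9.40% of genes in the table, or 13.0% of the genes compared here that have a window. Of the 18 windows of higher members, 10 held it. The longer ER stress elements known as ERSE and ERSE-II were found in 0 of the 45, with shares of 0.137% and 0.0444% in the table. GATA motifs (A or T, then GATA, then A or G, on either strand) stood in 5 of the 45 (Sec13, Sec31a, Spcs2, Ssr1 and Tmed9) and in 33.0% of genes in the table, or 22.6% of the genes compared here that have a window.

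The translocon group was brighter throughout on day 2. Of its 14 genes, 13 were measured, all with ratios above 0 (median log2 ratio 0.96). At least 2-fold higher than on day 0 were 6, where 11.0% of all genes were. Sec61a1, the pore-forming subunit of the channel, read 4130.5, 7453 and 10468 on day 0, day 1 and day 2, 2.53-fold higher on day 2. Its 6 probe sets had log2 ratios from 0.75 to 1.74. Sec61b, a small subunit of the same channel, read 8283, 10837 and 14285 and stayed under 2-fold (1.72-fold). The third subunit, Sec61g, had no probe set annotated to it alone and was not analysed here.

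Sec62 and Sec63 assist the channel with proteins that enter it less readily. Sec62 read 2576, 5005 and 5905 on the 3 days (2.29-fold on day 2), and Sec63 read 593, 1034.5 and 1363 (2.30-fold). On the probe sets used, the last array was the brightest in both genes. Of 5 probe sets each, 2 for Sec62 and 4 for Sec63 were brighter on day 2 than on day 1. Against day 0, 4 of the 5 for Sec63 had day 2 log2 ratios from 0.99 to 1.20, and the remaining one stood at -0.15. The 5 for Sec62 spanned 0.24 to 1.39. Averaged over all their probe sets, both were under 2-fold.

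Ssr1, Ssr2, Ssr3 and Ssr4 encode the TRAP complex, which sits beside the channel and helps some chains enter. Ssr3 read 4414, 9339 and 11517 on day 0, day 1 and day 2 and was the one translocon gene past 2-fold already on day 1 (2.12-fold). Its second probe set had log2 ratios of 1.00 on day 1 and 1.37 on day 2. Ssr1 read 4174, 6662 and 9658 (2.31-fold on day 2), with 4 probe sets between 0.91 and 1.30 in log2 ratio. The other subunits differed from this pattern.

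Ssr2 read 6305, 5381 and 6948, lower than day 0 on day 1 and 1.10-fold higher on day 2, from its only probe set. Ssr4 read 3511.5, 5446.5 and 8963 on its brightest probe set (2.55-fold on day 2). The other 2 Ssr4 probe sets, both dimmer, gave log2 ratios of 0.09 and -0.28, so this difference rests on a single probe set.

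The signal peptidase cuts the signal peptide off. Its subunits Spcs1, Spcs2 and Spcs3 had log2 ratios of 0.79, 0.59 and 0.66 on day 2 against day 0, and its catalytic subunit Sec11c was just under the threshold at 1.94-fold (754, 1078 and 1465 on the 3 days). All were brighter at each step. Srpr, the receptor subunit that docks the signal recognition particle, read 2420.5, 3600.5 and 3442. On this probe set, all of its difference lay in the first day. Its second, dim probe set exceeded the floor on day 2 alone, at 90.4.

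The COPII group was divided. All 12 measured genes of 13 had ratios above 0 on day 2, but the median was 0.34. Past 2-fold were 3 (11.0% of all genes), in the inner coat alone. In COPII the small GTPase Sar1 recruits Sec23 and Sec24, which form the inner coat and select cargo, and Sec13 and Sec31 build the outer cage. Without probe sets whose name marks them as unspecific, the group's median was 0.60.

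Sec24d, an adaptor whose loss in humans causes a skeletal disorder, read 545, 1478 and 3576 on day 0, day 1 and day 2. It was at least 2-fold higher in all 3 comparisons, by 2.71-fold on day 1 and 2.42-fold again from day 1 to day 2, and is the first of the promoters shown above. Sec24a read 930.0, 1775 and 3059 (3.29-fold on day 2), while its second, dim probe set had a log2 ratio of -0.42. Sec24b read 440.2, 536 and 729 (1.66-fold), and Sec24c 2777, 3530 and 3300.0 (1.19-fold).

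The 4 Sec24 genes therefore ran apart. The log2 ratio of Sec24d exceeded that of Sec24c by 2.46, where the probe set SD of such a difference is 0.35, and that of Sec24a by 1.00. The place of Sec24b is uncertain. Its other probe set, dimmer on day 0 but brighter on day 1 and day 2, read 175, 667 and 1054 and gave a log2 ratio of 2.59, close to Sec24d, where the one used gave 0.73.

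Sec23a and Sec23b, which form the rest of the inner coat and stimulate Sar1 to hydrolyse GTP, also diverged. Sec23a, another gene of a human skeletal disorder, read 1669, 3106.5 and 4506 on the 3 days (2.70-fold on day 2), with 1 probe set. Sec23b read 3915, 4680.4 and 4939.5 (1.26-fold), so the log2 ratios differed by 1.10. Sar1a and Sar1b were nearly level, at 1.19-fold and 1.21-fold.

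The rest of the COPII group stayed under 2-fold. The cage gene Sec31a was 1.68-fold higher on day 2 than on day 0 and its partner Sec13 1.27-fold. Sec16a, a scaffold of ER exit sites, was 1.25-fold higher, and Preb, the exchange factor that loads Sar1 with GTP, read 1800.2, 2715 and 2292, a log2 ratio of 0.35 on day 2. The other 2 Preb probe sets gave 0.72 and 1.82, and the mean over probe sets 0.96. On the probe sets used, day 2 was dimmer than day 1 for Preb, Sec24c and Srpr alone among members. Sec16b was at the floor on every array.

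**Figure D3:**
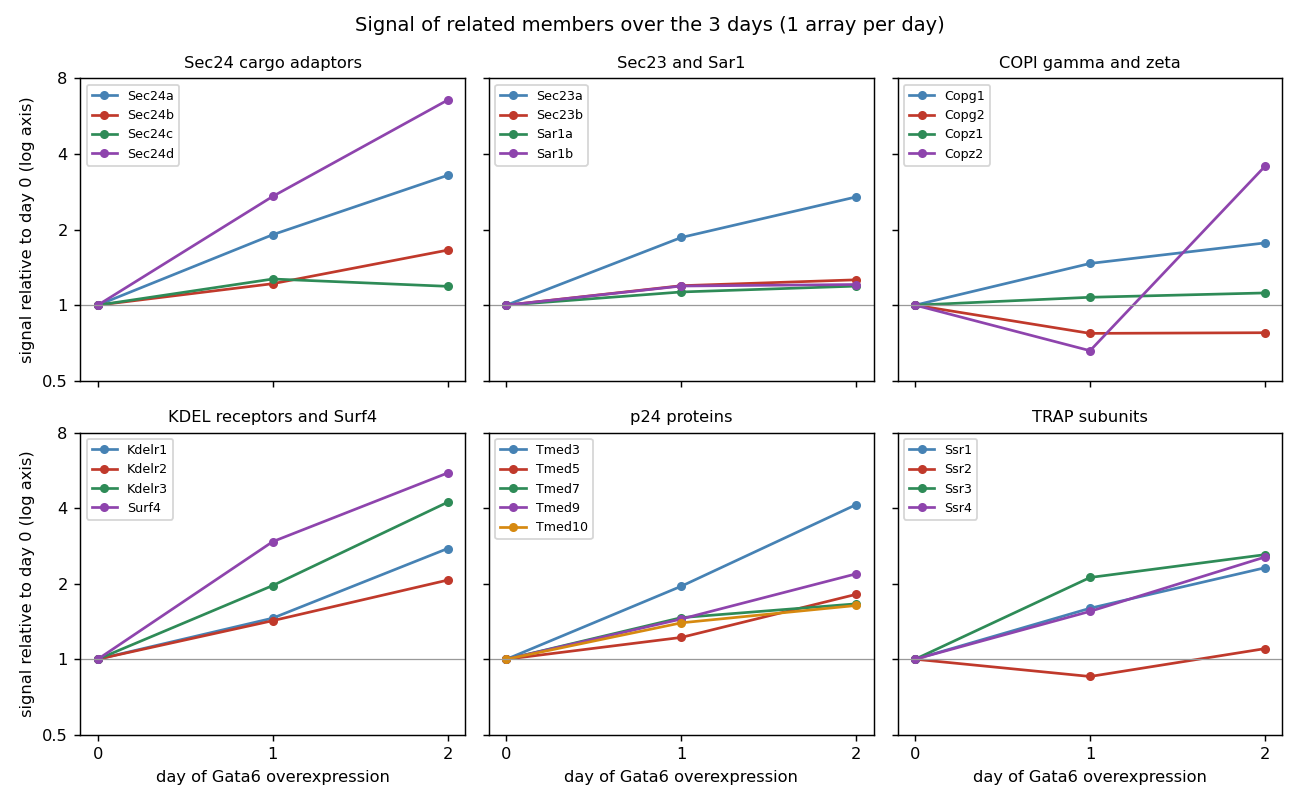
Signal relative to day 0 (log axis) on day 0, day 1 and day 2 for related members, 1 array per day. Sec24d reaches 6.56 times and Sec24c 1.19 times its day 0 signal, Sec23a 2.70 and Sec23b 1.26 times, Kdelr3 4.22 and Kdelr2 2.07 times, and Ssr2 stays near 1.

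COPI is built of 7 coatomer subunits, which assemble as a unit, and here most of them differed by a similar amount. All 10 genes of the group were measured. On day 2, 3 were at least 2-fold higher (11.0% of all genes), and the median log2 ratio was 0.91. Copa (alpha subunit) read 4320, 6358 and 10210.0 on day 0, day 1 and day 2 (2.36-fold on day 2), and Copb1 (beta) read 1850.0, 2914.5 and 3980.2 (2.15-fold). Copb2, Arcn1, Cope and Copg1, which encode the beta prime, delta, epsilon and gamma subunits, lay between 1.77-fold and 1.89-fold, short of the threshold. Gbf1, which activates the Arf GTPases that recruit COPI, was 1.74-fold higher. Copb1, Copb2 and Gbf1 are among the promoters shown above.

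The gamma and zeta subunits each have a second gene. Copg2 read 822, 635 and 639, a log2 ratio of -0.36 on day 2, which lies 1.19 below that of Copg1. Copz1 read 4736, 5090.4 and 5297 (1.12-fold). Its paralogue Copz2 was dim, at 82.0 on day 0, at the floor on day 1 and at 293 on day 2, which is 3.57-fold higher on day 2 than on day 0 and at least 5.43-fold higher than on day 1. It rests on 1 probe set at signals where the probe set SD was 0.49. Its log2 ratio of day 2 against day 0 became 1.01 under a floor set at the 60th percentile and 1.38 under a pseudocount of 50, where the floor used gave 1.84. Against day 1 these values were 1.01, 1.72 and 2.44.

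The cargo receptors and ER-Golgi membrane proteins held the most members past the threshold. Of 17 genes, 16 were measured, with a median log2 ratio of 0.95. By day 2, 8 were at least 2-fold higher than on day 0 (11.0% of all genes). Surf4, a receptor that speeds the ER exit of soluble secreted proteins, read 897, 2638 and 4952 on day 0, day 1 and day 2. It was 2.94-fold higher on day 1 and 5.52-fold on day 2, and its 5 probe sets all lay between 1.52 and 2.65 in day 2 log2 ratio.

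The KDEL receptors catch escaped ER chaperones in the Golgi and return them in COPI vesicles. Kdelr3 read 1333, 2619 and 5624 (4.22-fold on day 2), Kdelr1 read 1557, 2269.5 and 4297 (2.76-fold) and Kdelr2 read 2653, 3778 and 5481 (2.07-fold). All 3 were brightest on day 2. The log2 ratio of Kdelr3 exceeded that of Kdelr2 by 1.03 and that of Kdelr1 by 0.61, with a probe set SD of 0.35 for each difference. The second Kdelr2 probe set gave 1.41, nearer to Kdelr1.

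The p24 proteins (Tmed genes) are coat-binding membrane proteins that cycle between ER and Golgi with cargo such as lipid-anchored proteins. Tmed3 read 274, 536 and 1133 on the 3 days (4.13-fold on day 2) and was also past 2-fold from day 1 to day 2 (2.11-fold). Its other probe set was under the floor on all 3 arrays, and the mean over both gave a day 2 log2 ratio of 1.02. Tmed9 read 2825, 4086 and 6185 (2.19-fold). Tmed5, Tmed7 and Tmed10 were 1.81-fold, 1.66-fold and 1.64-fold higher on day 2 than on day 0, below the threshold. For Tmed2, the probe set annotated to it alone was at the floor on every array.

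Among the lectins, Lman2, which carries glycoproteins out of the ER, read 1107, 1837 and 2468.5 (2.23-fold on day 2). Lman1, which exports blood clotting factors together with its partner Mcfd2, was 1.49-fold higher on day 2, and Mcfd2 was 1.76-fold. A pair of Lman1 probe sets dimmer than the one used gave log2 ratios of 1.02 each, against 0.57 for that one.

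The 3 Ergic genes, named for the compartment between ER and Golgi, differed in direction. Ergic2 read 1136, 1827 and 2323 on day 0, day 1 and day 2 (2.05-fold on day 2), and Ergic3 was 1.38-fold higher. Ergic1 read 805, 397 and 466, and was the only member at least 2-fold lower in any comparison (2.03-fold lower on day 1 than on day 0). Its log2 ratio was -1.02 on day 1 and -0.79 on day 2. Over its 5 probe sets the day 2 ratios ran from -0.79 to 0.19. Golga2, which encodes the Golgi tether GM130, was 1.72-fold higher on day 2.

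**Figure D4:**
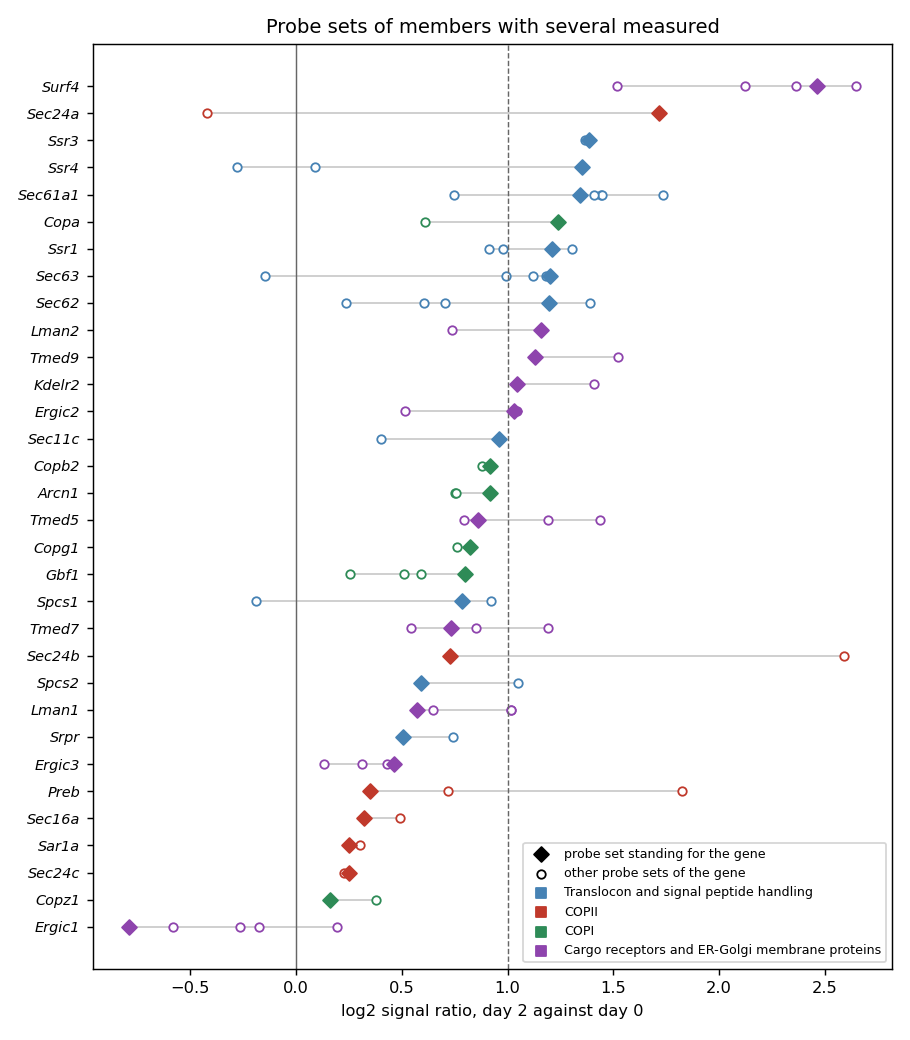
Log2 signal ratio of day 2 against day 0 for each measured probe set of the 32 members that have several. Diamonds are the probe sets standing for the gene, circles the others, the solid line marks 0 and the dashed line 2-fold. All probe sets lie right of 0 in 27 of the 32 genes, and Sec24a, Ssr4, Sec63, Spcs1 and Ergic1 have probe sets on either side.

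Probe sets of a member mostly had the same sign. Of 116 measured member probe sets, 107 had a day 2 log2 ratio above 0. Of the 13 members at least 2-fold higher that had several, all probe sets were above 0 in 10, and the others were Sec24a, Ssr4 and Sec63. Both counts include the probe sets that stood for the genes, so they partly repeat the main result. No share over all probe sets of the arrays is set beside them. When the mean over probe sets stood for each gene, 14 members were at least 2-fold higher, 13 of them among the 20. The 7 that fell under the threshold were Copa, Ergic2, Lman2, Sec24a, Sec62, Sec63 and Ssr4.

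Other genes of the early secretory pathway were also mostly brighter on day 2 than on day 0. The list held 82 genes outside the members, of which 76 were measured: 64 had a day 2 log2 ratio above 0, 19 were at least 2-fold higher and 0 lower, with a median of 0.56, where 11.0% of all genes were higher and the median was -0.05. Arf GTPases, their regulators and further p24 proteins had a median of 1.04 (5 of 9 higher), and translocon partners with the oligosaccharyltransferase, which attaches sugar chains to entering proteins, had 0.87 (6 of 16). COPII partners had 0.85 (3 of 15) and the signal recognition particle with its receptor partner 0.50 (2 of 7). The lowest median was that of tethers and SNAREs, which dock and fuse vesicles, at 0.41, with 3 of 29 higher (10.3%), a share near that of all genes.

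The 3 with the highest day 2 ratios were Creb3l2, Arfgap3 and Golgb1. Creb3l2, an ER membrane-bound transcription factor that in mouse cartilage is known to act on Sec23a, read 84.4, 978 and 1826 on day 0, day 1 and day 2, and both its probe sets had day 2 log2 ratios over 3 (3.29 and 4.44). Arfgap3, which ends the COPI coat cycle by making Arf1 hydrolyse GTP, read 84.9, 367 and 653 (7.69-fold on day 2). Its other probe set gave a day 2 log2 ratio of 1.67, against 2.94 for the one used. Golgb1, a Golgi tether also called giantin, read 325, 669 and 1146, but its second measured probe set gave a log2 ratio of 0.11.

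**Figure D5:**
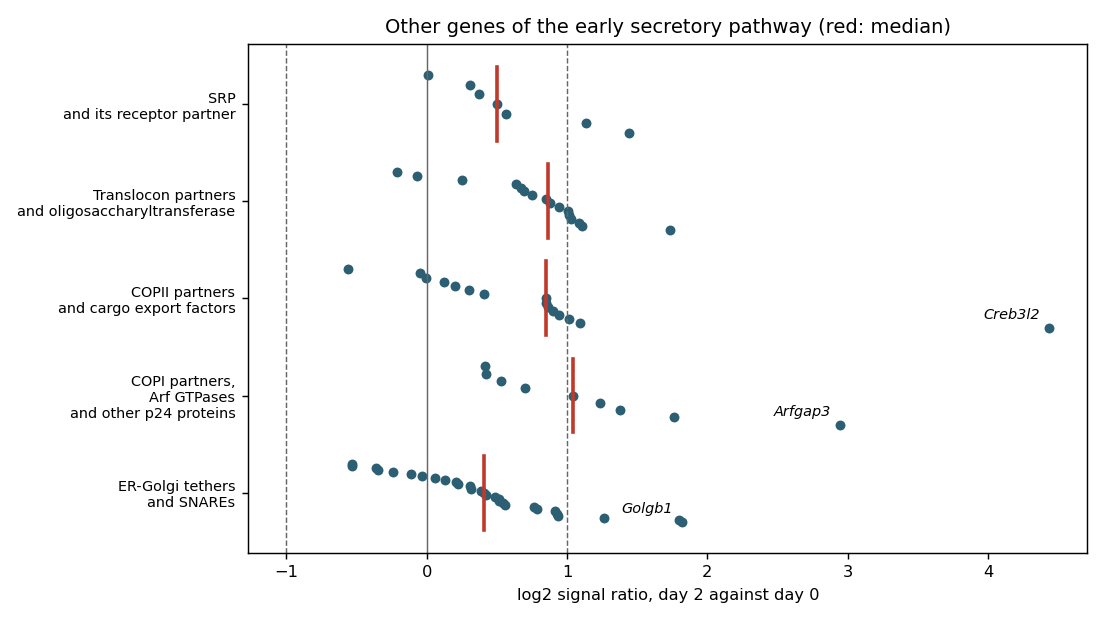
Log2 signal ratio of day 2 against day 0 for the 76 measured genes of the pathway outside the members, by role, 1 point per gene. Red bars are medians, dashed lines mark 2-fold, and the 3 highest genes are named. No point lies left of the left dashed line, and 19 lie past the right one.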

How the data were processed

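Gene expression was measured on 3 Affymetrix arrays, 1 per day. The authors deposited 1 linear intensity per probe set, which MAS5 had computed, per the submitters' processing notes. Their 2% trimmed mean over all probe sets was 500.0 on each array, so the authors had applied a common scaling before deposit. Of 45101 probe sets, 64 were controls, 34945 had 1 gene, 932 several and 9160 none. Symbols were updated by gene identifier through RefSeq (GRCm38.p6; 34741 matched).

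Arrays were rescaled to one trimmed mean over the other probe sets, lower values were raised to a floor of 54.01, the 40th percentile, and log2 was taken (Python 3.11.15, pandas 2.3.3). The probe set annotated to a gene alone with the highest mean log2 value stood for it. A gene was compared where either array lay above the floor and called at 2-fold. Folds against the floor are written as at least N-fold. Levels are not compared between probe sets. Median signals were 84.2, 81.8 and 86.4 on day 0, day 1 and day 2, and the Actb 3' to 5' ratio was 1.25, 1.21 and 1.24. Precision is limited by the number of arrays. Alternatives covered the floor, a pseudocount of 50, scaling (limma 3.58.1), probe set choice and fold threshold. Members and lists were chosen with earlier results of these data known. All members may be named, and of other pathway genes the 3 highest and 3 lowest past 2-fold (0 were lower).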

Additional observations from a re-analysis of the deposited data

How the results depend on the processing

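No paired analysis was possible because each day has 1 array. With floors at the 25th and 60th percentiles, a pseudocount, quantile normalization or cyclic loess, the 20 members higher on day 2 than on day 0 all kept that call. Without unspecific probe sets 18 did: Sec63 was lost and the log2 ratio of Ssr4 reversed to -0.28. The COPII median of that comparison became 0.60 without unspecific probe sets, since other probe sets then stood for some genes. At a 1.5-fold threshold 37 members were higher (20.2% of all genes) and 1 lower (21.9%) on day 2 against day 0, 17 (13.3%) and 2 (15.9%) on day 1 against day 0, and 10 higher (15.0%) on day 2 against day 1. At 3-fold the higher counts were 6 (5.19% of all genes), 0 (2.54%) and 1 (1.69%), and on day 1 against day 0 the lower count was 0. The lower count on day 1 against day 0 was also 0 with a pseudocount and with means over probe sets, under which Ergic1 was within 2-fold of day 0. Of 1070 values of single members under the alternatives to floor, scaling and probe set, 1030 moved by less than the probe set SD, 39 by more and 1 reversed. Many of these values could not move, so the count says little about robustness. Of the measured members, 50 were above the floor on all 3 arrays, and 19 had 1 measured probe set. All medians of the role groups stayed above 0 under these alternatives. Dim signals limit Copz2, Sec16b and Tmed2.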

Other observations

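The promoter element TGACGTGG was also looked at outside the members, a comparison added after the values were seen. Of 108 measured genes that carry it and are not members, 17 were at least 2-fold higher and 5 lower on day 2 than on day 0, which is 15.7% higher with a median log2 ratio of 0.19. Of the 11065 measured genes with a promoter window and no match, 10.9% were higher, with a median of -0.06. The ER stress element ERSE stood in 16 measured genes, of which 6 were higher and 3 lower (median 0.58). Of 11163 measured genes without ERSE, 1220 were higher and 1102 lower. ERSE-II stood in 8 measured genes, of which 4 were higher and 0 lower (median 0.92). Of 11171 without ERSE-II, 1222 were higher and 1105 lower. Carriers of ERSE and ERSE-II were few, so their shares are imprecise. None of these carriers is a member. The shorter box ACGTGG stood in 1428 measured genes outside the members, of which 12.5% were higher (median -0.04). Of 9729 measured genes without that box, 10.7% were higher (median -0.06). Among 2529 carriers of GATA motifs 10.9% were higher, against 11.0% of 8650 genes without one.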
